A study of Mus musculus with 6 samples.

Results

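The subject is the difference between day 3 and day 1 in mouse kidneys whose blood supply had been clamped for 60 min. It rests on 2 of the 6 Affymetrix expression arrays of the series, the 60 min array of day 3 and the 60 min array of day 1. The same day difference was taken from the 2 arrays of kidneys clamped for 0 min, which had the anaesthesia and flank incision alone, and from the 2 arrays of kidneys clamped for 45 min. All animals were male FVB/N mice, 6 to 8 weeks old and 22 to 26 g. In the 45 and 60 min animals the vessels of 1 kidney were clamped with a microclamp and released (unilateral ischemia-reperfusion injury). What became of the other kidney is not given in the sources used here. The title concerns blockade of the cytokine TNF, and no kidney with that blockade is analysed here.

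Each clamp time and day has 1 array, and the labels do not say whether an array holds RNA of 1 animal. No spread between replicates can be measured, so the values below are sizes with no test. A day difference is log2(intensity + 16) at day 3 minus that at day 1, so that 1.00 is a doubling. The added 16 shrinks the differences of dim genes. Of 18193 genes, 12735 passed a filter on their mean level over the 6 arrays and are counted below. A gene that is bright on 1 array can pass through that array alone. A gene is called higher or lower when its day difference is at least 2-fold.

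After clamping, the proximal tubule is the part of the kidney most exposed to lack of oxygen. Surviving tubule cells lose some of their transport functions, re-enter the cell cycle and replace lost neighbours over the next days. Neutrophils and monocytes enter first, monocytes become macrophages that clear debris, and a repair-type macrophage with scavenger and lysosomal genes follows. Resident fibroblasts lay down matrix, which resolves after mild injury and can persist as fibrosis after severe injury.

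Between day 1 and day 3 after 60 min, 384 genes (3.02% of those counted) were at least 2-fold higher and 139 (1.09%) at least 2-fold lower. Higher calls made up 73.4% of all calls. After 0 min the counts were 218 higher (1.71%) and 175 lower (1.37%), and after 45 min 150 higher (1.18%) and 259 lower (2.03%). The 60 min pair held the most higher calls of the 3 pairs. It also had the fewest lower calls, an order that turned with quantile normalization (149 after 60 min and 147 after 0 min) and with a filter at the 60th percentile (76 and 64). At 4-fold, 41 genes were higher and 16 lower after 60 min. The median day difference over all genes was 0.00 after 60 min and 0.00 after 0 min. Just inside the 2-fold limit stood Pcdh12 (1.00) and H2-DMa (1.01, and 0.97 with quantile normalization) on the high side and Fkbp5 (-1.01) on the low side, and just outside it Hk2 (1.00 after rounding) and Wipf3 (-0.99).

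Part of the 60 min difference was also present in unclamped kidneys. Of the 384 genes higher after 60 min, 79 were also higher after 0 min, which is 20.6% of the 60 min calls and 36.2% of the 0 min calls. Of the 139 lower genes, 35 were also lower after 0 min, 25.2% and 20% of the 2 lists. With 45 min the shared calls were 18 higher genes, 4.69% and 12% of the 2 lists, and 19 lower genes, 13.7% and 7.34%. Calls in the opposite direction after 45 min covered 10 of the 384 higher genes (2.60%) and 12 of the 139 lower genes (8.63%). After 0 min they covered 7 and 3. Across genes, which are not independent replicates, the 60 min and 0 min day differences had Pearson's r = 0.36 and Spearman's rho = 0.29 over 12735 genes. For 60 min and 45 min, r was 0.12 and rho 0.11. The pairs share no array. The 60 min day difference exceeded the 0 min one by at least 2-fold in 451 genes (3.54%) and fell short of it by as much in 234 (1.84%).

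**Figure D1:**
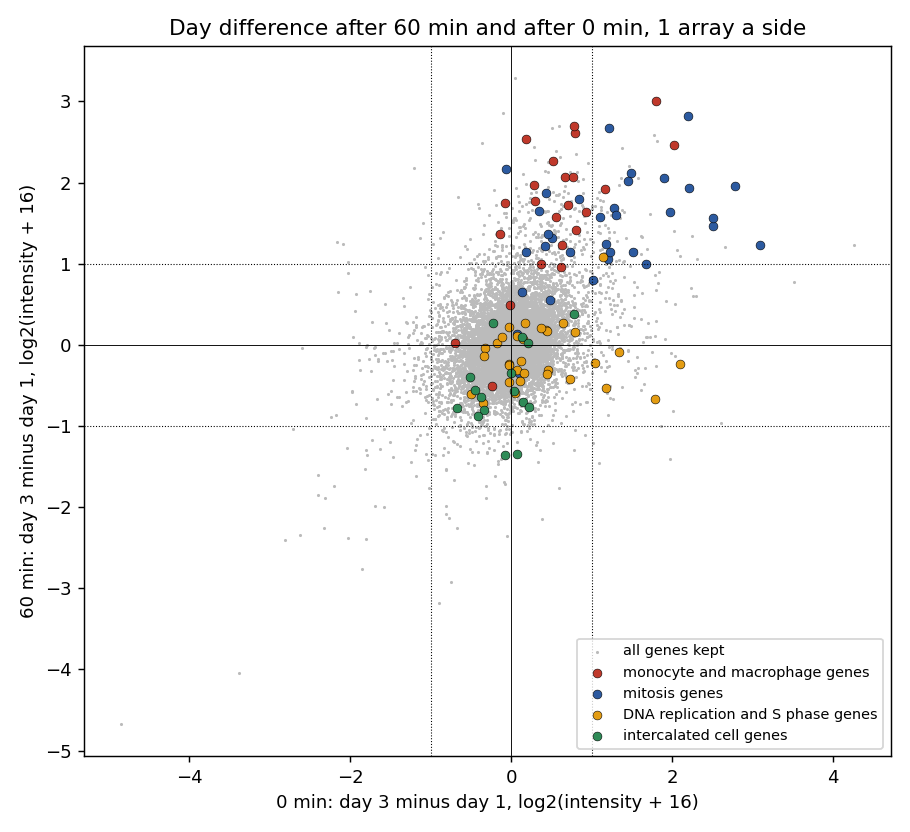
Each point is 1 of 12735 genes, with its log2 day difference after 0 min across and after 60 min up, and dotted lines at 2-fold. Mitosis genes (blue) lie to the upper right in both pairs, monocyte and macrophage genes (red) lie high after 60 min with smaller values after 0 min, and most DNA replication genes (orange) lie near 0 after 60 min.

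A measure of RNA quality differed between the days. Beta-actin control probes at the 3' end read brighter than those at the 5' end, the more so in degraded RNA, by 1.08 (log2) at day 1 and 0.49 at day 3 after 60 min. After 0 min it was 1.12 and 0.77, and after 45 min 1.10 and 1.03. For Gapdh control probes the 5' end read brighter on every array. The same measure was -0.20 and -0.37 after 60 min, -0.23 and -0.37 after 0 min, and -0.22 and -0.33 after 45 min. The part of RNA quality in the gene differences was not tested. Array medians of intensity ranged from 81.1 to 95.0. A second probe set of the same gene passed the filter for 114 of the 384 higher genes and had the same direction for 108 of them, 59 of these by at least 2-fold. For lower genes the counts were 37, 36 and 17. Kidney segment genes were bright on both 60 min arrays. Umod, the uromodulin of the thick ascending limb, read 28950 at day 1 and 27164 at day 3, and Slc34a1, the phosphate transporter of the proximal tubule, 13046 and 17153.

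Monocyte and macrophage genes had the highest median of the 43 gene lists. Of 25 genes in this list 23 were counted, and 18 were at least 2-fold higher at day 3 after 60 min, none lower, with a median of 1.75. After 0 min 3 of the 23 were higher (median 0.62), and after 45 min 2 were higher and 1 lower (median 0.32). In whole kidney, more cells of a type and more RNA per cell cannot be told apart. Summed over the list, intensity was 28579 at day 1 and 79097 at day 3 after 60 min. The sums were 11829 and 20832 after 0 min, and 24148 and 31254 after 45 min. Of the 23 genes, 22 had their highest value of all 6 arrays on the 60 min day 3 array, against 26.5% of all genes counted. Day 1 after 60 min stood a median of 0.77 above day 1 after 0 min for these genes, and day 3 stood 2.02 above.

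Lyz2, the lysozyme of myeloid cells, read 2124 at day 1 and 17100 at day 3 after 60 min, a day difference of 3.00. Its values after 0 min were 889 and 3124, and after 45 min 2572 and 5504. Every pair was higher at day 3 for this gene, and the 60 min day 3 array stood above the other 5. Lyz1, a near-identical copy whose probes may read both genes, went from 3664 to 20213. Fcgr3, an activating receptor for antibody, read 255 and 1740 (2.70), against 176 and 315 after 0 min and 225 and 529 after 45 min. Mrc1, the mannose receptor CD206 of resident and repair-type macrophages, read 397 and 2495 (2.61). Its 0 min arrays read 230 and 411 and its 45 min arrays 400 and 657, so both clamped kidneys were alike in value at day 1 and stood apart at day 3. Ms4a7, a membrane protein of macrophages, read 135 and 864 (2.54), and 99.7 and 116 after 0 min.

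Adaptors and receptors of myeloid cells were higher too. Tyrobp and Fcer1g, the adaptors that carry the signal of many myeloid receptors, had day differences of 2.07 and 1.93 after 60 min, and 0.67 and 1.16 after 0 min. Csf1r, the receptor for the growth factor on which macrophages depend, read 1965 and 6540 (1.73), and 2472 and 4033 after 0 min. Adgre1 (F4/80), the common marker of mouse macrophages, read 221 and 693 (1.58). Itgam (CD11b) read 38.3 and 167, and Cx3cr1 and Ccr2, chemokine receptors of monocytes, had day differences of 1.36 and 1.23 (0.99 for Ccr2 with a pseudocount of 64). Not all markers of the list stood out. Cd68, a lysosomal protein, had 0.96, Msr1 0.49, Cd14 0.02 and Lgals3, which injured tubule cells also make, -0.51. Chosen after values were seen, 7 of 9 Fc receptor and adaptor genes and 5 of 7 Ms4a genes counted were at least 2-fold higher after 60 min. In other lists chosen in the same way, 2 of 12 lysosomal cathepsins (median 0.27) and 1 of 12 genes of the immunoproteasome and MHC class I (median 0.43) were higher.

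Genes tied to repair-type macrophages included some of the largest day differences after 60 min. Of 15 genes counted 6 were higher and none lower (median 0.81), against 1 and 0 after 0 min and 0 and 2 after 45 min. Gpnmb, a glycoprotein of lipid-laden and repairing macrophages, read 60.2 and 535 after 60 min (2.85), 51.1 and 46.6 after 0 min, and 92.5 and 59.9 after 45 min. Only the 60 min day 3 array was above 100 for this gene. Apoe, an apolipoprotein made by macrophages that take up debris, read 1361 and 7176 (2.39), against 1782 and 2642 after 0 min. Trem2, a lipid-sensing receptor of the same cells, read 8.31 and 292 after 60 min. It lay below 10 on both 0 min arrays and its mean level did not pass the filter. Chil3, Folr2 and Stab1 had day differences of 1.47, 1.24 and 1.21 (0.96 for Folr2 with a pseudocount of 64). Arg1 and Il10, often used as repair markers, had 0.54 and -0.25, and Il10 did not pass the filter.

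Antigen presentation genes were also higher. In the list of MHC class II and dendritic cell genes, 6 of 10 genes counted were higher and none lower after 60 min (median 1.29), 2 after 45 min (median 0.65) and none after 0 min (median 0.19). Cd74, the chain that escorts MHC class II, read 518 and 2331 after 60 min (2.14) and 501 and 1964 after 45 min (1.94). H2-Aa, a chain of MHC class II itself, read 768 and 3372 after 60 min, 793 and 3555 after 45 min, and 2024 and 2252 after 0 min. For Cd74 and H2-Aa both clamped kidneys were below the 0 min kidney at day 1 and above it at day 3. This did not hold for every member. H2-Ab1 read 533 and 1076 after 45 min, against 945 and 1364 after 0 min. Ciita, the regulator that switches these genes on, had a day difference of 0.11 after 60 min, and Itgax, which dendritic cells carry, 111 and 124.

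Of 14 complement genes counted 7 were higher and none lower after 60 min (median 0.93), with 2 and 0 after 0 min and none after 45 min. C1qa, C1qb and C1qc, which macrophages make and which together form the recognition part of the classical pathway, had day differences of 1.85, 2.14 and 1.71. For C1qa the intensities were 766 and 2811, against 548 and 833 after 0 min. Among 20 chemokines 5 were higher and 1 lower (median 0.54). Ccl8 read 77.8 and 517 (2.51), and 80.4 and 322 after 0 min (1.81), so it was higher at day 3 in unclamped kidneys as well. Ccl2, the main attractant of monocytes, read 336 and 1176 (1.76), and 317 and 237 after 45 min. Ccl6 and Ccl9 had 1.65 and 1.22, and 0.33 and 0.03 after 0 min. Ccl28, an epithelial chemokine, was the 1 lower member, at 2105 and 928 (-1.17, and -0.94 over the mean of its probe sets).

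Tnf itself, the target of the treatment named in the title, read 9.41 at day 1 and 73.4 at day 3 after 60 min, and its mean level did not pass the filter. It read 9.49 and 18.4 after 0 min. Of 25 targets of TNF and NF-kB counted, 4 were higher and none lower after 60 min (median 0.36): Ccl2, Il1b, Traf1 and Nfkbie. Il1b, an inflammatory cytokine, read 102 and 290. Nfkbie had 1.13 (0.74 in its second probe set) and Traf1 1.20 (0.80 with a pseudocount of 64). The adhesion receptor Icam1 read 1658 and 1627, and the feedback inhibitor Nfkbia 5237 and 6599. After 0 min they read 710 and 701, and 4412 and 3519, so both stood higher after 60 min on each day. Interferon-stimulated genes had 1 of 21 higher, Psmb8, a subunit of the immunoproteasome (380 and 955, and 0.56 in log2 over the mean of its probe sets). Their median was 0.49, against 0.13 after 0 min and 0.02 after 45 min, and 18 of the 21 had a positive day difference after 60 min. Ubd, a ubiquitin-like protein that interferon and TNF induce, read 99.4 and 733 (2.70).

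Fewer markers of neutrophils and lymphocytes passed the filter. Of 17 neutrophil genes 8 were counted and 2 were higher, Mmp9 (60.6 and 270) and Clec4d (126 and 439). Both of these are also made by macrophages. The neutrophil list median was 0.34, against 0.20 after 0 min and 0.51 after 45 min, and 6 of the 8 had a positive day difference. Csf3r read 77.9 and 156 (0.87). Of genes that did not pass the filter, Il1r2 read 29.5 and 122 and Ltf 39.9 and 25.3. S100a8 and S100a9, the proteins that fill the neutrophil, read 774 and 738, and 523 and 534. Lcn2 read 10746 and 6621. Of 23 lymphocyte genes 9 were counted and 3 were higher, Thy1, Ptprc and Il7r. The list median was 0.85, against 0.37 after 0 min, and 6 of the 9 had a positive day difference. Ptprc (CD45), which all white blood cells carry, read 620 and 1818. The mean of its probe sets had 0.98, and Il7r had 0.69 with a pseudocount of 64. Thy1 also marks fibroblasts, and Cd3e, Cd4 and Cd79a, which define T and B cells, read 39.3 or less on both 60 min arrays. Some other members were dim but brighter at day 3. Cd3d read 2.99 and 31.6, Cd8a 45.6 and 85.0, Cd79b 47.9 and 98.8, and Ms4a1 26.2 and 60.5. Ighm, Jchain and Mzb1 went the other way, with -0.21, -0.62 and -0.51.

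**Figure D2:**
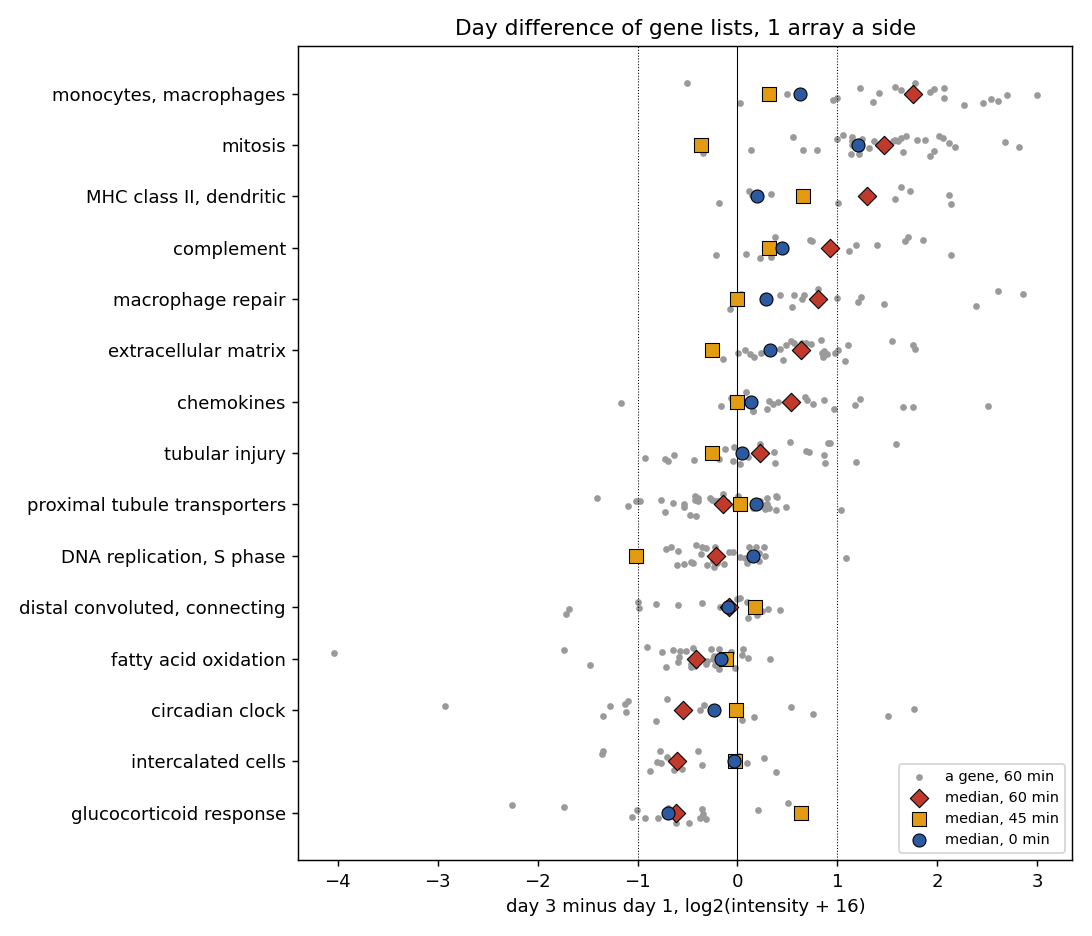
Grey points are the log2 day differences of single genes after 60 min, by list, and the symbols are the list medians after 60 min (red), 45 min (orange) and 0 min (blue), with dotted lines at 2-fold. Monocyte and macrophage, mitosis and MHC class II genes had 60 min medians above 1, at 1.75, 1.47 and 1.29.

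Genes of mitosis were higher at day 3 after both 60 min and 0 min. Of 38 genes in this list 33 were counted, and 27 were at least 2-fold higher after 60 min, none lower, with a median of 1.47. After 0 min 20 were higher (median 1.20). After 45 min none was higher, 2 were lower, and the median was -0.37. Summed over the list, intensity was 20450 and 42073 after 60 min, 10821 and 15427 after 0 min, and 19423 and 15325 after 45 min. For 32 of the 33 genes the 60 min day 3 array was the highest of all 6. With other constants added, pseudocounts of 1, 16 and 64 gave 0 min medians of 1.44, 1.20 and 0.69. The choice of probe set mattered to the 60 min count. With the probe sets of a gene averaged 19 of 28 were higher (median 1.34), and with second probe sets 8 of 16 (median 1.04).

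Ube2c, the enzyme with which the anaphase-promoting complex marks its substrates, read 259 and 1922 after 60 min (2.82), 41.7 and 248 after 0 min (2.20), and 295 and 305 after 45 min (0.04). Cdc20, the activator of that complex, read 696 and 2953 (2.06), and 107 and 441 after 0 min. Cenpa, the histone that marks centromeres, read 114 and 814 (2.68). Cdk1, the kinase that starts mitosis, read 577 and 1373 after 60 min (1.23) and 2.22 and 139 after 0 min (3.09). The 0 min value of 3.09 depends on the added 16, since 2.22 lies below it. The level of Cdk1 was higher after 60 min on both days. Mki67, the proliferation marker Ki-67, read 535 and 1609 (1.56), and 29.6 and 244 after 0 min. Foxm1, a transcription factor of this programme, read 322 and 250 (-0.34).

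DNA replication genes stood differently from the mitosis genes after 60 min. Of 32 genes counted of the 34 in the list 1 was higher and none lower, with a median of -0.21. After 0 min 6 were higher (median 0.15), and after 45 min 17 were lower (median -1.02). Rrm2, a subunit of the enzyme that makes deoxynucleotides, was the 1 higher member, at 1950 and 4161 (1.09, and 0.88 in its second probe set). Mcm5 and Mcm6, subunits of the replicative helicase, read 2063 and 1538, and 1706 and 1173. After 0 min they read 194 and 334, and 85.9 and 215, and after 60 min they were higher than these on both days. Pcna, the sliding clamp, read 6866 and 7235. Of the 32 genes, 19 had their highest value of all 6 arrays at day 1 after 60 min and 12 at day 3 after 60 min. So 19 of 32 replication genes were brightest on the 60 min day 1 array, and nearly all mitosis genes on the 60 min day 3 array. In the 0 min pair 22 of the 32 replication genes had a positive day difference, against 12 after 60 min. The mitosis median also lay above the replication median after 0 min (1.20 and 0.15) and after 45 min (-0.37 and -1.02).

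**Figure D3:**
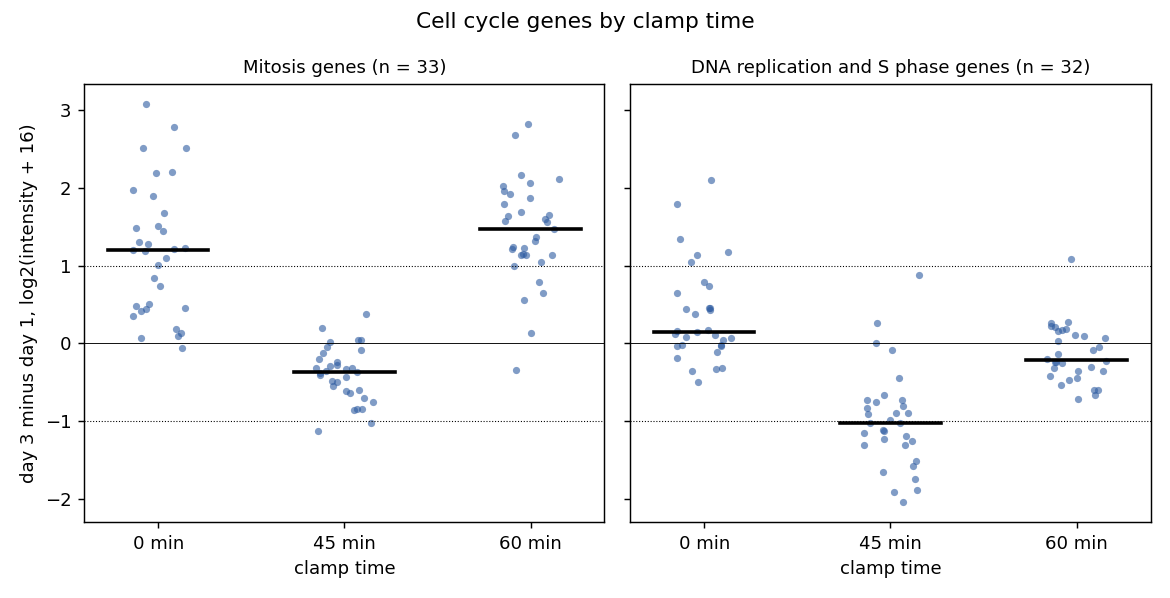
Points are the log2 day differences of 33 mitosis genes (left) and 32 DNA replication genes (right) at each clamp time, bars are medians and dotted lines mark 2-fold. The mitosis medians are 1.20, -0.37 and 1.47 after 0, 45 and 60 min, and the DNA replication medians 0.15, -1.02 and -0.21.

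Both lists are known to be read out through short promoter elements. Genes of mitosis often carry a cell cycle genes homology region (CHR, TTTGAA) and CCAAT boxes, and genes of DNA replication often carry an E2F site (core TTCCCGC or TTGGCGC). The promoters of the RefSeq table (build GRCm38.p6), 250 bases before to 50 after each start, were searched for these letters on both strands. CHR letters were present in 22 of 31 mitosis genes that have a promoter there (71.0%), 3 of 27 replication genes (11.1%) and 20.2% of all 27025 genes. For CCAAT the shares were 80.6%, 59.3% and 41.1%. For the E2F core they were 12.9%, 55.6% and 7.79%. Of 20 macrophage genes with a promoter, 5 held CHR letters, 11 CCAAT and 0 the E2F core. A match is a description of letters and not of binding. Stretches of 110 bases up to the base before the start show how the letters sit, in the 4 mitosis genes and 3 replication genes below, in lower case with every match to 1 of the 3 motifs in capitals, on either strand.
Cdk1, chr10:69352913-69353022, minus strand: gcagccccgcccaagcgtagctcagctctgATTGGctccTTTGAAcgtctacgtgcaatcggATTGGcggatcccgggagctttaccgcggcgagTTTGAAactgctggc
Ube2c, chr2:164769819-164769928, plus strand: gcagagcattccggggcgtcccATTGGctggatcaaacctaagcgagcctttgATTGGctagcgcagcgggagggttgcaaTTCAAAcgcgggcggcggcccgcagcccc
Cdc20, chr4:118437344-118437453, minus strand: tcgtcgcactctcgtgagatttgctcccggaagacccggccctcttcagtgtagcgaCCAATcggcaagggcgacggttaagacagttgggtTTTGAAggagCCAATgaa
Kif11, chr19:37376272-37376381, plus strand: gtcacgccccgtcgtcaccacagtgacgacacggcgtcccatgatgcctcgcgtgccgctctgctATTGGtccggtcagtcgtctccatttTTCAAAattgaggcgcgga
Mcm6, chr1:128359706-128359815, minus strand: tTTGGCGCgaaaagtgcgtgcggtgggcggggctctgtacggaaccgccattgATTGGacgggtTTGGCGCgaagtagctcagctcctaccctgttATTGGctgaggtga
Uhrf1, chr17:56303227-56303336, plus strand: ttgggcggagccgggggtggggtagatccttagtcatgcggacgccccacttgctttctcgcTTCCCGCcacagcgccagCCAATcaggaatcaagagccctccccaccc
Rrm1, chr7:102441585-102441694, plus strand: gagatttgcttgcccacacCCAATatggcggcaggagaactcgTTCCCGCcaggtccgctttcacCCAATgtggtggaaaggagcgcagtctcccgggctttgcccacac
The 4 mitosis genes each carry CHR letters that begin 29 bases or fewer before the start, and their 60 min day differences were 1.23, 2.82, 2.06 and 1.36 (0.90 for Kif11 in its second probe set). Mcm6, Uhrf1 and Rrm1 carry the E2F core and had -0.53, -0.23 and 0.22. Uhrf1 has a second start in the table, and the same stretch before it holds CCAAT and no E2F core. The printed genes were picked by hand as examples. Day differences of genes with and without a motif were not compared, so no link between motif and day difference was tested.

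Tubular injury markers were high on both days. Havcr1 (KIM-1), a scavenger receptor that injured proximal tubule cells display, read 13011 and 11483 after 60 min (-0.18), against 599 and 1242 after 0 min. Its second probe set had 0.04. Lcn2 (NGAL) read 10746 and 6621 and Krt20, a keratin of the injured tubule, 988 and 514 (-0.92). Of 24 injury markers counted 2 were higher and none lower after 60 min (median 0.22), and 14 had their highest value of the 6 arrays on the 60 min day 3 array. The higher members were Vcam1 and Sprr2f. Vcam1, an adhesion receptor, read 1196 and 3624 (1.59, and 0.77 in its second probe set). Sprr2f, a cornified envelope protein, read 961 and 2202 (1.18). Sprr2f read 50.2 and 58.9 after 0 min. Immediate early genes had 2 of 24 higher, Egr1 (1218 and 2535) and Egr2 (159 and 348, and 0.93 in log2 with a pseudocount of 64).

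Of 30 matrix genes counted 6 were higher and none lower after 60 min (median 0.64), 28 had a positive day difference, and for 28 the 60 min day 3 array was the highest of the 6. After 0 min 5 were higher (median 0.32) and 27 had a positive day difference. After 45 min 1 was lower (median -0.25) and 7 had a positive day difference. The 60 min day difference was above the 0 min one in 18 of the 30. Dcn and Lum, proteoglycans of fibroblasts, read 1989 and 6755 (1.76) and 188 and 684 (1.78), with 0.10 and 0.27 after 0 min. A second probe set of Dcn had 1.09. Fap, a fibroblast protease, read 39.4 and 145 (1.54, and 1.02 with a pseudocount of 64), and Fn1 (fibronectin) 3126 and 6760 (1.11, and 0.66 in its second probe set). The fibrillar collagens differed among themselves. Col3a1 read 10405 and 18832 (0.85) and Col1a1 1326 and 1395 (0.07), while after 0 min Col1a1 read 131 and 535 (1.91). A second probe set of Col1a1 had 0.69 after 60 min. Among genes of resident fibroblasts and pericytes 2 of 13 were higher, Thy1 and Dpt (268 and 744), and none lower. The median of that list was 0.10, against 0.01 after 0 min, and 7 of the 13 had a positive day difference. Cspg4 and Des had -0.49 and -0.34.

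Proximal tubule transporters had few calls. Of 41 counted 1 was higher and 3 lower after 60 min (median -0.14), with 4 and 0 after 0 min (median 0.19). For 36 of the 41 genes the 60 min day difference was below the 0 min one. The median of the 60 min minus the 0 min day difference was -0.37 over this list and 0.005 over all genes counted. Other lists had this too. The 60 min value was above the 0 min one in 2 of 32 oxidative phosphorylation genes and 7 of 32 DNA replication genes. Slc22a7 (OAT2), an organic anion transporter, read 1116 and 412 after 60 min (-1.40), 2079 and 8196 after 0 min (1.97), and 2981 and 4056 after 45 min (0.44). Slc22a19, a relative, read 1756 and 386 (-2.14) after 60 min, and 2858 and 3747 after 0 min. Slc22a13 and Slc16a9 had -1.09 and -1.02, and Slc34a3, a phosphate transporter, 1.03, with 1.40 after 0 min. All 3 calls lay near the limit and fell short of it at a pseudocount of 64, with -0.99 for Slc22a13 and 0.99 for Slc34a3, and the second probe set of Slc16a9 had -0.61. In amino acid metabolism 3 of 29 genes were higher and 2 lower. Gatm, which makes the precursor of creatine, read 6457 and 16135 (1.32), and 7709 and 17929 after 0 min. Hpd, a tyrosine-degrading enzyme, read 991 and 194 (-2.26), and 5147 and 1017 after 0 min (-2.32). Arg2 read 2970 and 1006 (-1.55).

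In the distal segments, S100g (calbindin-D9k), a calcium buffer of the distal convoluted and connecting tubule, read 14798 and 4495 (-1.72). Its 0 min arrays read 17390 and 16546 and its 45 min arrays 20270 and 19483, so only the 60 min day 3 array stood low. Slc12a3, the thiazide-sensitive salt transporter, read 2897 and 888 (-1.69), and 4880 and 4575 after 0 min. The mean of its probe sets had -0.63, short of a call. Pvalb read 374 and 181, and Calb1 3788 and 2140, against 2042 and 2062, and 13041 and 13054, after 0 min. Over the list 2 of 18 counted were lower, with a median of -0.09. Kl (klotho), a hormone co-receptor, read 4406 and 4729, while after 0 min it read 2979 and 9516.

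Intercalated cells are the acid-base cells of the collecting duct. Of 16 of their genes counted 2 were lower and none higher after 60 min, with a median of -0.60 against -0.04 after 0 min and -0.03 after 45 min. For 14 of 16 the 60 min day difference was below the 0 min one, and for 12 of 16 the 60 min day 3 array was the lowest of the 6, against 21.4% of all genes. The median of the 60 min minus the 0 min day difference was -0.38 for these genes and 0.005 over all genes counted. Aqp6, an intracellular water channel of these cells, read 1295 and 496 (-1.36), and 1642 and 1551 after 0 min. Slc4a1, the anion exchanger AE1, read 362 and 133 (-1.34), and its second probe set had -0.67, short of a call. Foxi1, the transcription factor that specifies the cells, read 348 and 270 (-0.35), and Car2 15394 and 15600. Principal cell genes had no call and a median of -0.37, close to -0.35 after 0 min and -0.30 after 45 min, and Aqp2, the water channel under vasopressin, read 3311 and 1717 (-0.94). Thick ascending limb genes had no member at 2-fold (median -0.11), and Egf, made there and in the distal convoluted tubule, read 6409 and 5356, against 19971 and 23566 after 0 min.

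**Figure D4:**
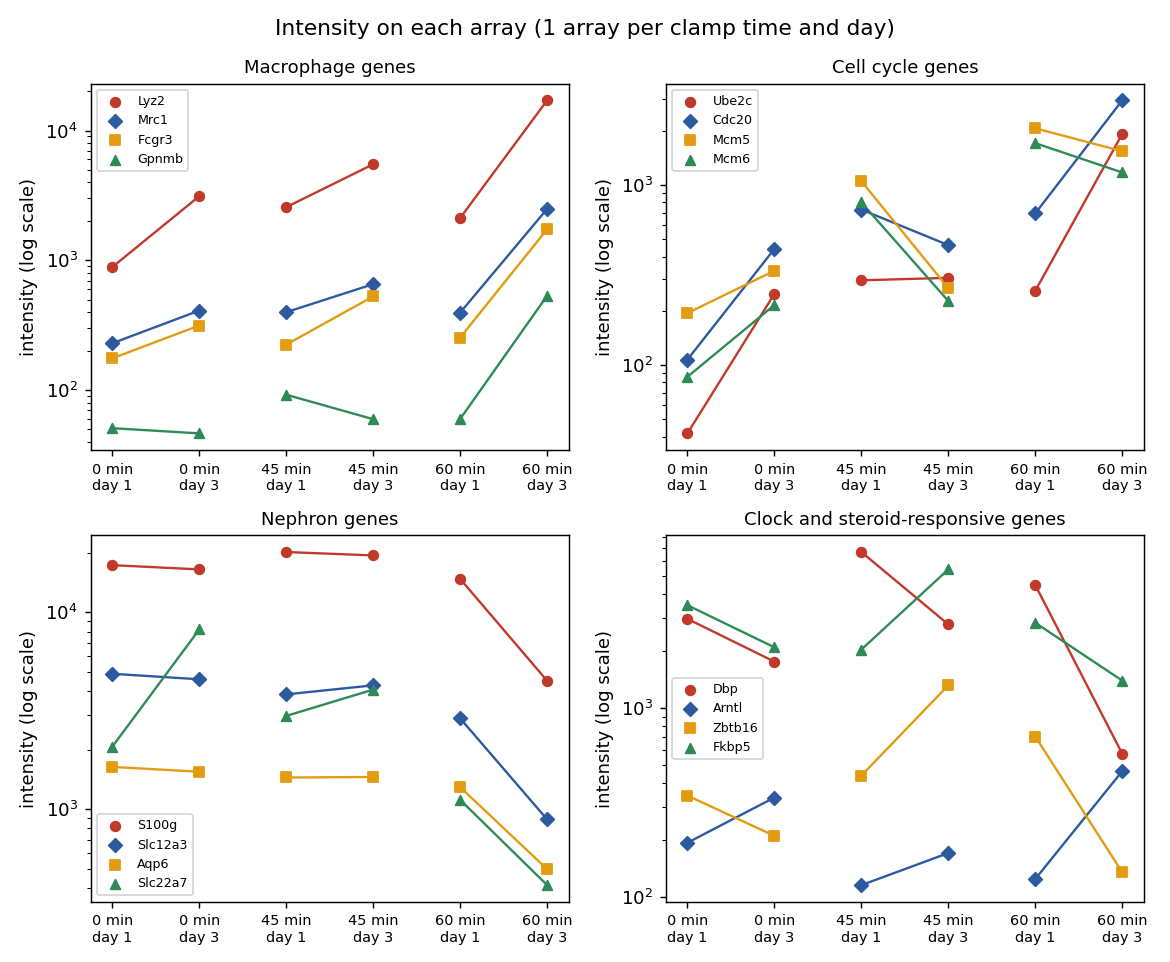
Intensity on a log axis on each of the 6 arrays, with a line joining day 1 to day 3 at each clamp time, for macrophage, cell cycle, nephron and clock or steroid-responsive genes. Lyz2 reaches 17100 on the 60 min day 3 array, and S100g, Slc12a3 and Aqp6 have their lowest values there, at 4495, 888 and 496.

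Among the largest lower differences several were shared with the 0 min pair. Azgp1, a secreted lipid-mobilising protein, read 773 and 15.0 after 60 min (-4.67), 802 and 12.5 after 0 min (-4.84) and 18.0 and 11.6 after 45 min. Its high values on 2 of the 3 day 1 arrays do not follow clamp time. Cyp4a14, a fatty acid hydroxylase under the receptor PPAR-alpha, read 8576 and 506 after 60 min (-4.04), 16833 and 1603 after 0 min and 13595 and 407 after 45 min, lower at day 3 in all 3 pairs. Ndufs5, a subunit of respiratory complex I, read 3503 and 676, and 5864 and 938 after 0 min. It was not on the list of oxidative phosphorylation genes, of which none of 32 counted was called (median -0.04).

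Of 19 acute phase genes counted 5 were lower and none higher after 60 min (median -0.26), with 5 lower and 1 higher after 45 min (median -0.23) and 3 lower after 0 min (median -0.09). Fga, Fgb and Fgg, the chains of fibrinogen, which injured tubule cells express, read 7062 and 1333, 2656 and 280, and 10896 and 2704. In log2 terms Fga had -2.39 and Fgb -3.18, with -1.80 and -0.89 after 0 min. Saa1, a serum amyloid protein, read 347 and 52.7, and 293 and 28.3 after 0 min. Transcripts known from liver, in a list chosen after values were seen, included lower members too. Of 10 counted 4 were lower and none higher after 60 min, and Alb (albumin) read 120 and 16.2 (-2.08, and -1.20 with a pseudocount of 64), against 230 and 125 after 0 min. Summed over that list intensity was 22790 at day 1 and 22124 at day 3, most of it Cyp2e1, which kidney also makes. Its part in the result was not tested. In fatty acid oxidation 3 of 35 genes were lower (median -0.41), Cyp4a14, Pdk4 and Fabp1 (-1.48, and -0.87 with a pseudocount of 64). After 0 min 3 were lower and after 45 min 4, and for 27 of 35 the 60 min day 3 array was the lowest of the 6.

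Clock genes differed between the days in opposite directions. Of 16 counted 2 were higher and 6 lower after 60 min, with 0 and 0 after 0 min and 2 and 2 after 45 min. Arntl (BMAL1) and Npas2, of the activating limb of the clock, read 125 and 464 (1.77) and 108 and 335. Dbp, Hlf, Tef, Per2, Per3 and Ciart, which that limb drives, had -2.92, -1.35, -1.09, -1.27, -1.13 and -1.12. Short of a call were the second probe sets of Hlf (-0.91), Tef (-0.92) and Per3 (-0.85), and Ciart with a pseudocount of 64 (-0.73). The mean of the Arntl probe sets had 1.11, and that of the Per2 probe sets fell just short of a call. All list members called after 60 min differed in the same direction after 0 min, short of 2-fold. There Arntl had 0.75 and Npas2 0.92. Dbp, Hlf, Tef, Per2, Per3 and Ciart had -0.74, -0.99, -0.26, -0.84, -0.40 and -0.21. For Dbp the intensities were 4452 and 572 after 60 min, 2955 and 1757 after 0 min and 6662 and 2762 after 45 min. The hour at which kidneys were taken is not given in the sources used here. Genes that glucocorticoid hormones induce had 4 of 15 lower and none higher after 60 min (median -0.61), 2 lower after 0 min (median -0.70), and 5 higher and 1 lower after 45 min (median 0.64). Zbtb16, a sensitive member, read 706 and 136 after 60 min (-2.25) and 440 and 1319 after 45 min (1.55). Its second probe set had -1.42 after 60 min. Fkbp5, a co-chaperone of the receptor, had -1.01 and 1.40, and its second probe set -0.51 after 60 min.

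Stress and antioxidant lists differed in their calls after 60 min. In the list of NRF2 targets 1 of 19 was higher and 3 lower. Hmox1, the haem-degrading enzyme that macrophages also make, read 256 and 982 (1.88), while Gclc, Nqo1 and Gsta2 had -1.28, -1.20 and -1.10. After 0 min Hmox1 had 1.09, and the same 3 genes had -0.51, -0.71 and -1.04. Cytosolic heat shock proteins had none of 17 called after 60 min and 8 higher after 45 min, and chaperones of the endoplasmic reticulum none of 18 and 5, with a 60 min median of -0.01 that becomes 0.00 under quantile normalization. Of 19 p53 targets 2 were higher, Pmaip1 (1.04) and Sesn1 (1.02, and 0.65 in its second probe set). Cdkn1a (p21), the cell cycle inhibitor, read 1161 and 755 (-0.61), and its second probe set had 0.40. Endothelial genes had none of 19 called. In podocytes Tcf21, a transcription factor also found in fibroblasts, was the 1 call of 12, at 1033 and 2612 (1.33), with 0.20 in its second probe set.

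Genes that differed most between the 60 min and the 0 min day difference were of several kinds. At the high end stood Tnfaip8l2, an inhibitor of immune cell activation, at 12.3 and 260 (3.29), against 95.1 and 98.6 after 0 min and 106 and 97.7 after 45 min. For this gene the 60 min day 1 array alone read low, and with a pseudocount of 64 the 60 min difference was 2.09. Gpnmb followed, and Cd33, a myeloid lectin, read 9.31 and 126 (2.49, and 1.37 with a pseudocount of 64). Tgfb3, Oit1 and Zfp688 stood there because the 0 min day 3 array read 2.43, 7.38 and 11.1, and after 60 min their day differences were 1.25, 1.02 and -0.04. Those 0 min values lie below the added 16, and with a pseudocount of 64 the 60 min differences of Tgfb3 and Oit1 were 0.83 and 0.74. At the low end stood genes that were higher at day 3 after 0 min. Bcat1, which breaks down branched-chain amino acids, read 766 and 4765 after 0 min and 2381 and 1217 after 60 min (-0.96). Akr1c18, a steroid-reducing enzyme, read 262 and 5296 after 0 min and 1395 and 3300 after 60 min (1.23). Pik3c2g read 75.4 and 1027 after 0 min, and 315 and 551 after 60 min.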

How the data were processed

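Kidney RNA of 6 samples, biotin-labelled with a 3' IVT kit per the labels' protocols, was hybridised to Affymetrix arrays. The authors deposited linear intensities of each probe set. Affymetrix Expression Console is named in the submitters' processing notes, while its version and algorithm are not stated there. The mean after trimming the lowest and highest 2% was 500.003 on every array, so the authors' values had been scaled to 1 target, and a shift of many bright genes would move the others.

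The platform annotation gave 1 gene symbol for 34945 of 45101 probe sets, several for 932 and none for 9160, and 64 were controls. Gene identifiers of 34741 matched the RefSeq gene table, which changed 0 symbols. The brightest probe set, by mean log2(intensity + 16) over the 6 arrays, stood for its gene, and genes at or above the 40th percentile (log2 6.01) were kept. Day differences are day 3 minus day 1, called at 2-fold. With 1 array a side no test was possible. The calculation was tested on simulated data. Python 3.11.15, numpy 2.4.6 and pandas 2.3.3 were used.

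The 43 lists held 918 symbols, 845 on the array and 769 kept. Comparisons, lists and rules were chosen with earlier results of these data known, and 5 further lists after these values were seen. A rule set which genes to name, passing over predicted ones. It covered the 12 highest and 12 lowest genes of the 60 min day difference with an intensity of 100 or more on the brighter array. It also covered the 8 highest and 8 lowest against 0 min and up to 4 members of each list. Always covered were Havcr1, Lcn2, Krt20, Slc34a1, Umod, Egf, Tnf, Mki67, Cdk1, Col1a1 and Cdkn1a. Not all of these genes are printed above. Among those left out are Apoa4 (-2.76), Cyp2d9 (-2.38), Ms4a6b (2.68) and Ecrg4 (2.58). Other genes were named from the lists after their values were seen. Other settings were pseudocounts of 1 and 64, 2 normalizations (quantile, and centring on medians), the level filter dropped or set to the 60th percentile, and each gene read from its second probe set or from all of them averaged.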

Additional observations from a re-analysis of the deposited data

Results flagged for a closer look

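No group had more than 1 array, so no array could be set against others of its group. Some named genes were at least 2-fold higher at day 3 after 1 clamp time and at least 2-fold lower after another, and the differences were not tested. Against 0 min, the 60 min day difference was higher by 3.33 for Tgfb3 (1.25 and -2.08), by 3.05 for Oit1 (1.02 and -2.03), by 2.63 for Tnfsf13b (1.62 and -1.01) and by 2.59 for Ccdc74a (26.9 and 106 after 60 min, 135 and 55.1 after 0 min). In all 4 genes every intensity was 163 or less on the 60 min arrays except Tnfsf13b at day 3 (233). A second probe set of Tnfsf13b had 0.44 after 60 min, short of a call. The 0 min day 3 intensities of Tgfb3 (2.43) and Oit1 (7.38) lie below the added 16, so the sizes of these differences depend on it. For Slc22a7 the difference was -3.37 (-1.40 and 1.97). Against 45 min, it was -3.80 for Zbtb16 (-2.25 and 1.55) and -2.41 for Fkbp5 (-1.01 and 1.40).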

How the results depend on the processing

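With a pseudocount of 64 the lower calls after 60 min numbered 64, the calls after 45 min 80 higher and 98 lower, those after 0 min 106 and 74, and the 60 min against 0 min calls 221 and 109. With no filter on level the counts were 788 higher and 453 lower after 60 min, 668 and 597 after 45 min, 549 and 734 after 0 min, and 1372 and 843 for 60 min against 0 min. With a filter at the 60th percentile they were 192 and 76, 85 and 110, 114 and 64, and 151 and 112. With the second probe set, fewer genes can be counted, and they were 119 and 83, 64 and 117, 97 higher after 0 min, and 199 and 104. Otherwise the cause was not tested. Ccdc74a reversed to -0.76 with its second probe set. The share of higher calls after 45 min, 36.7%, became 47.5% with quantile normalization and 55.3% with median centring, and that of 60 min against 0 min, 65.8%, became 53.3% with quantile normalization. Of the 43 lists, the 3 with a median of at least 2-fold kept their direction in all 24 alternative values and stayed past 2-fold in 22, the lowest being 0.61 for MHC class II genes. Of the lists chosen after values were seen, the Fc receptor median (1.42) lay between 1.18 and 1.93 except with second probe sets (0.44 over 2 genes), and the Ms4a median (1.46) between 1.02 and 2.54. Of 659 alternative values of the 95 called genes that the naming rule covered, 658 kept their direction and 617 stayed past 2-fold. No paired analysis was possible because each group had 1 array, and for the same reason no replicate could be left out. Intensities near 16, below which 18.4 to 20.6% of probe sets lay, limit what dim genes show.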
